A study of Rattus norvegicus with 36 samples.

Results

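Soleus muscle of rats that had walked on a treadmill for 5 days was compared with that of untrained rats at the same time after spinal cord injury (SCI), day 14. The comparison takes 12 of the 36 arrays of the series, 6 labelled SCI14d + TM and 6 labelled SCI14d, chosen by their labels alone. All 12 animals were adult female Sprague Dawley rats, 16 weeks old at the start, with a moderate contusion of thoracic segment 8 made with a NYU-MASCIS weight-drop device. In SCI14d + TM, stepping started on day 7 in 20 min sessions, 2 a day for 5 days, with body weight support given by hand where needed. SCI14d rats had the same injury and no sessions. Uninjured rats (CTR, 6 arrays) are given beside them for level. The groups SCI8d and SCI8d + TM (6 arrays each, the latter after 3 sessions) serve to compare a short with a longer exposure. The left soleus was taken 8 h after the last session, and each rat gave 1 array (Affymetrix Rat Genome 230 2.0).

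The soleus is a postural muscle of the hindlimb made mostly of slow, oxidative fibers. When it is unloaded or its drive is reduced, its fibers shrink through ubiquitin ligases that mark muscle proteins for the proteasome, and they lose mitochondrial enzymes and gain fast myosins. Repeated contraction acts through coactivators of the PGC-1 family and the estrogen-related receptors (ERR) on genes of fatty acid use and respiration. Loading also acts on stretch-sensitive proteins of the sarcomere and on growth factors of the myostatin, BMP and IGF families.

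The skeletal muscle markers, such as Myh7 (slow myosin) and Tnnt1 (slow troponin T), were bright on every array, with Myh7 at 37777 to 66600 on the 12 arrays. One array stood apart. SCI14d replicate 4 had a mean of the 11 muscle markers 0.94 below the control mean on the log2 scale, against -0.37 to 0.07 on the other 5 untrained arrays and -0.28 to -0.01 on the trained ones. Its macrophage and leukocyte markers (18 genes) had the highest mean, 1.52 above controls, against -0.11 to 0.79 on the other untrained arrays. It correlated least with its group (r = 0.94 over probe sets, against 0.95 to 0.96 for the other 11) and had the highest ratio of 3′ to 5′ GAPDH probes (0.43 in log2), close to that of SCI14d + TM replicate 1 (0.41). The other 10 arrays had ratios of 0.05 to 0.22. In a whole muscle, fewer fibers and less RNA per fiber cannot be told apart. The values that SCI14d replicate 4 moves most are therefore given with and without it, and 6 arrays a group limit the precision of all of them.

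Few single genes passed the test, so the response is described by estimates, ranks and gene groups. Of 31042 probe sets, 1 passed an adjusted p under 0.05 in limma (0.00322%), and 13 did without SCI14d replicate 1. At an unadjusted p under 0.05, 889 probe sets were higher (2.86%) and 960 lower (3.09%) in trained muscle. The split followed the scaling of the arrays. The share of higher ones among them was 48.1% as deposited, 57.5% after quantile normalization, 65.6% after median centring and 33.9% after scaling to GAPDH. With 1 probe set for each of 14217 genes, 543 genes were higher at that p (3.82%), 438 were lower (3.08%), and 48.1% of all genes had a higher mean. These shares are the background for every gene list below. The median difference over all genes was -0.01. All 6 trained arrays lay above all 6 untrained ones for 40 probe sets (0.129%) and below them for 41 (0.132%).

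The probe set that passed, 1380971_at, carries no gene symbol, and no sequence is printed for it. Its signal was 44.5 on the lowest, 86.9 on the median and 156 on the highest untrained array, and 5.4, 13.2 and 15.8 in trained muscle. The groups did not overlap, and controls, at 57.6 to 147, lay with the untrained rats. It fell by 2.85 in log2 (SE 0.42, adjusted p = 0.00225 in limma). It is dim, and it failed the adjusted test with an offset of 32, with the 12 arrays alone and in the methods' t-test. On day 8 its training difference was 0.29 (SE 0.42).

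The muscle ubiquitin ligases did not share a direction. Trim63 (MuRF1), a ligase of the sarcomere that drives atrophy, had a signal of 5274, 7435 and 9383 on the lowest, median and highest untrained array, and 3630, 3894 and 4922 on the trained ones. All 6 trained arrays lay below all untrained ones, and 3 of 6 were below the lowest control (3854). The difference was -0.80 in log2 (SE 0.18, 95% confidence interval -1.17 to -0.43, adjusted p = 0.232). Its p ranked 5 of 14217 genes. Asb2, a ligase adaptor that turns over filamins, went the other way. It ranged over 6804, 7883 and 16210 without training and 12661, 15855 and 22574 with it, so that 3 of 6 trained arrays exceeded every untrained one. Its difference was 0.91 (SE 0.25, adjusted p = 0.394).

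Of 17 measured ligase and FoxO genes, 10 were lower and 7 higher on average, 4 lower and 1 higher at an unadjusted p under 0.05, with a median of -0.14. Leaving out 1 array gave medians of -0.19 to -0.0047, the weakest without SCI14d replicate 2, and without SCI14d replicate 4 there were 3 lower and 1 higher genes at that p. Cblb, which targets insulin receptor substrates, was among the lower ones at -0.28 (SE 0.13). The 36 proteasome subunits had a median of 0.01 and 0 passed even at an unadjusted p, and the median turned to -0.04 after quantile normalization and without SCI14d replicate 4, and to -0.06 after scaling to GAPDH. Of 22 autophagy and lysosome genes, 2 were higher and 0 lower at that p. The larger difference was that of Bnip3, a mitophagy receptor, at 0.67 (SE 0.18, adjusted p = 0.387, or 0.51 without SCI14d replicate 4), with 5 of 6 trained arrays above the highest untrained one (20158).

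**Figure D1:**
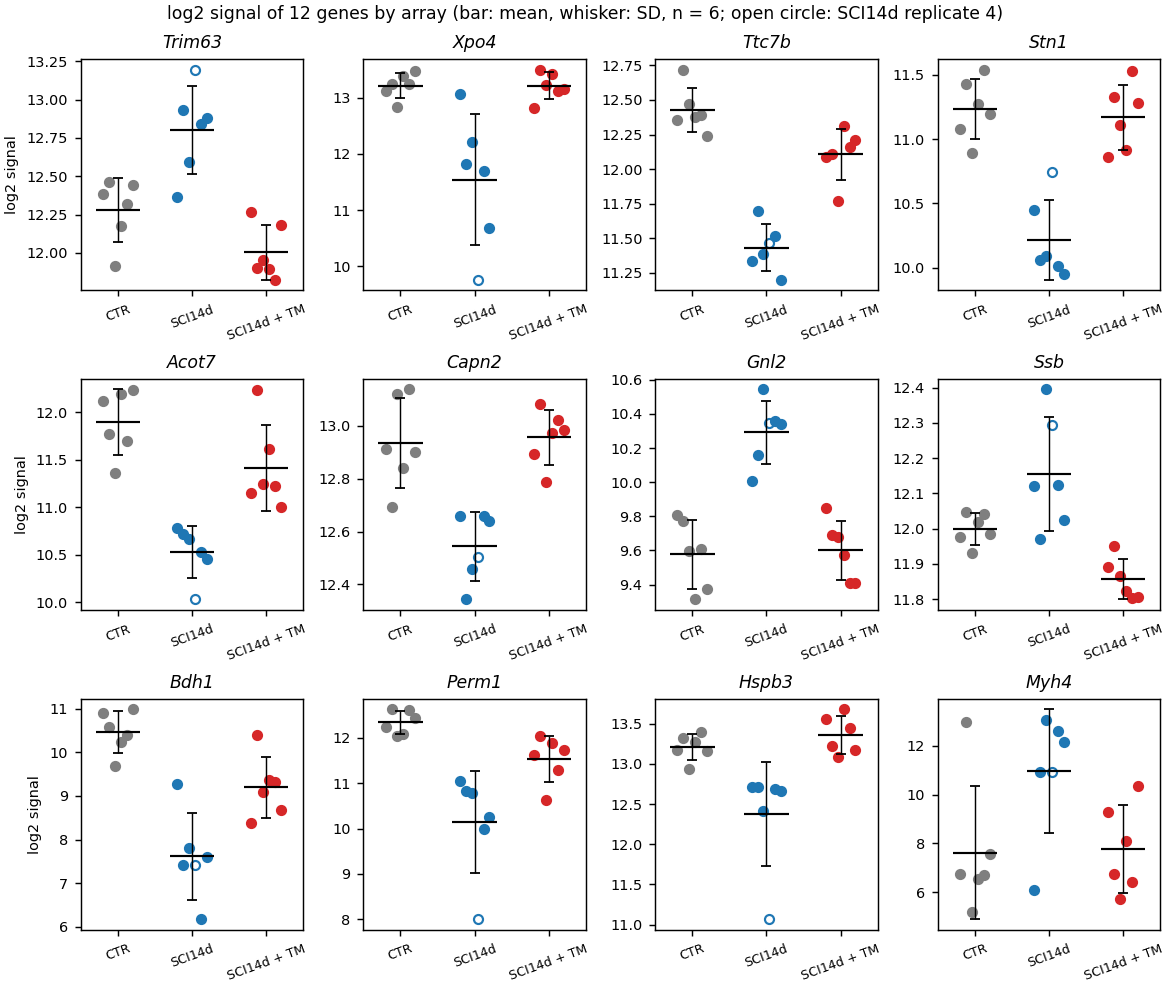
Each panel plots the log2 signal of 1 gene (y axis) on the 6 arrays of CTR, SCI14d and SCI14d + TM (x axis), with the mean as a bar and the SD as a whisker, and SCI14d replicate 4 as an open circle. Trained and untrained arrays do not overlap for Trim63, Ttc7b, Stn1, Acot7, Capn2, Gnl2, Ssb and Hspb3, and replicate 4 is the lowest array for Xpo4, Perm1 and Hspb3.

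Enzymes of ketone use were higher on average in trained muscle. Bdh1, which converts hydroxybutyrate to acetoacetate, was at 72.1, 182 and 616 on the lowest, median and highest untrained array and at 332, 590 and 1352 with training, against a control median of 1440. Only 1 untrained array reached into the trained range. The difference was 1.59 (SE 0.42, adjusted p = 0.332), and 1.55 without SCI14d replicate 4. Oxct1, which activates acetoacetate in the next step, was 0.82 higher (SE 0.28, adjusted p = 0.696, or 0.63 without SCI14d replicate 4), with a median of 8060 without and 15086 with training. Of the 6 measured genes of ketone use and monocarboxylate transport, 5 were higher on average and 2 at an unadjusted p under 0.05. Their mean log2 signal lay 1.36 to 0.58 below the control mean on the untrained arrays and 0.68 to 0.02 below it on the trained ones, and 5 of 6 trained arrays were above all untrained ones.

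Genes of fatty acid uptake were also mostly higher on average. Lpl, the lipase that frees fatty acids from circulating lipoproteins, had signals of 7509, 12900 and 20382 without training and 18639, 25469 and 35534 with it. All but 1 of the trained arrays were above the highest untrained array. The difference was 0.98 (SE 0.26, adjusted p = 0.324), and 0.90 without SCI14d replicate 4. Fabp3, the fatty acid carrier of muscle cytosol, differed by 1.21 (SE 0.37) and Vldlr, a lipoprotein receptor, by 0.55 (SE 0.20), or by 0.99 and 0.43 without that array. Of 19 genes of fatty acid uptake and storage, 15 were higher on average, 5 of them and none of the lower ones at an unadjusted p under 0.05. Without SCI14d replicate 4 these numbers were 14 and 3. The median of 0.17 moved between 0.07 (without SCI14d + TM replicate 4) and 0.28 (without SCI14d + TM replicate 3) when 1 array was left out.

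All 21 genes of mitochondrial fatty acid oxidation had higher means in trained muscle, by 0.17 to 0.70 in log2 with a median of 0.39, the highest of the 36 lists other than cell markers. The arrays themselves overlapped widely. The mean of the list lay between -1.07 and 0.03 on the trained and between -1.39 and 0.13 on the untrained arrays, relative to controls. Etfa and Etfb, which pass electrons from acyl-CoA dehydrogenases to the respiratory chain, differed by 0.42 each (SE 0.16 and 0.17), and Acadl, a long-chain dehydrogenase, by 0.37 (SE 0.16). Without SCI14d replicate 4 these were 0.31, 0.28 and 0.27. At an unadjusted p under 0.05, 6 of 21 were higher with all arrays and 0 without SCI14d replicate 4, where the median was 0.28 and all 21 means were still higher.

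Respiratory chain genes were mostly higher on average as well. Of 34 subunits of complex I, the entry point of electrons from NADH, 32 were higher on average with a median of 0.25, and 11 were higher at an unadjusted p under 0.05. Without SCI14d replicate 4 these numbers were 30, 0.14 and 2. Ndufa8 had 6122, 10478 and 12841 on the untrained and 11202, 13944 and 15317 on the trained arrays. The difference was 0.41 (SE 0.15) with all arrays and 0.27 without that one. Ndufa11 differed by 0.37 (SE 0.13) and Ndufs8 by 0.41 (SE 0.16), or by 0.29 and 0.30 without it.

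Complexes III and IV (25 genes, 23 higher, median 0.17), ATP synthase (16 genes, 15 higher, median 0.19) and the citrate cycle (17 genes, 14 higher, median 0.20) had 3, 1 and 2 genes at an unadjusted p under 0.05, all higher, and 0 each without SCI14d replicate 4. Their medians without it were 0.10 each. The muscle markers of that array were low together with these genes, and the part of this in the differences was not tested. Cox7a2l and Cox8a, respiratory genes that the study names for training, were 0.24 (SE 0.11) and 0.20 (SE 0.10) higher on average, or 0.17 and 0.18 without SCI14d replicate 4. Glycolysis and glycogen genes (31) had a median of 0.02, which was -0.05 without SCI14d replicate 4 and after scaling to GAPDH and -0.06 after quantile normalization, and the breakdown of branched-chain amino acids (20 genes) one of 0.10 with 0 genes at an unadjusted p under 0.05. The latter was 0.03 after scaling to GAPDH, with 11 genes higher on average in place of 16, and 0.04 to 0.26 when 1 array was left out, the highest without SCI14d replicate 2, which stood apart for this list.

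**Figure D2:**
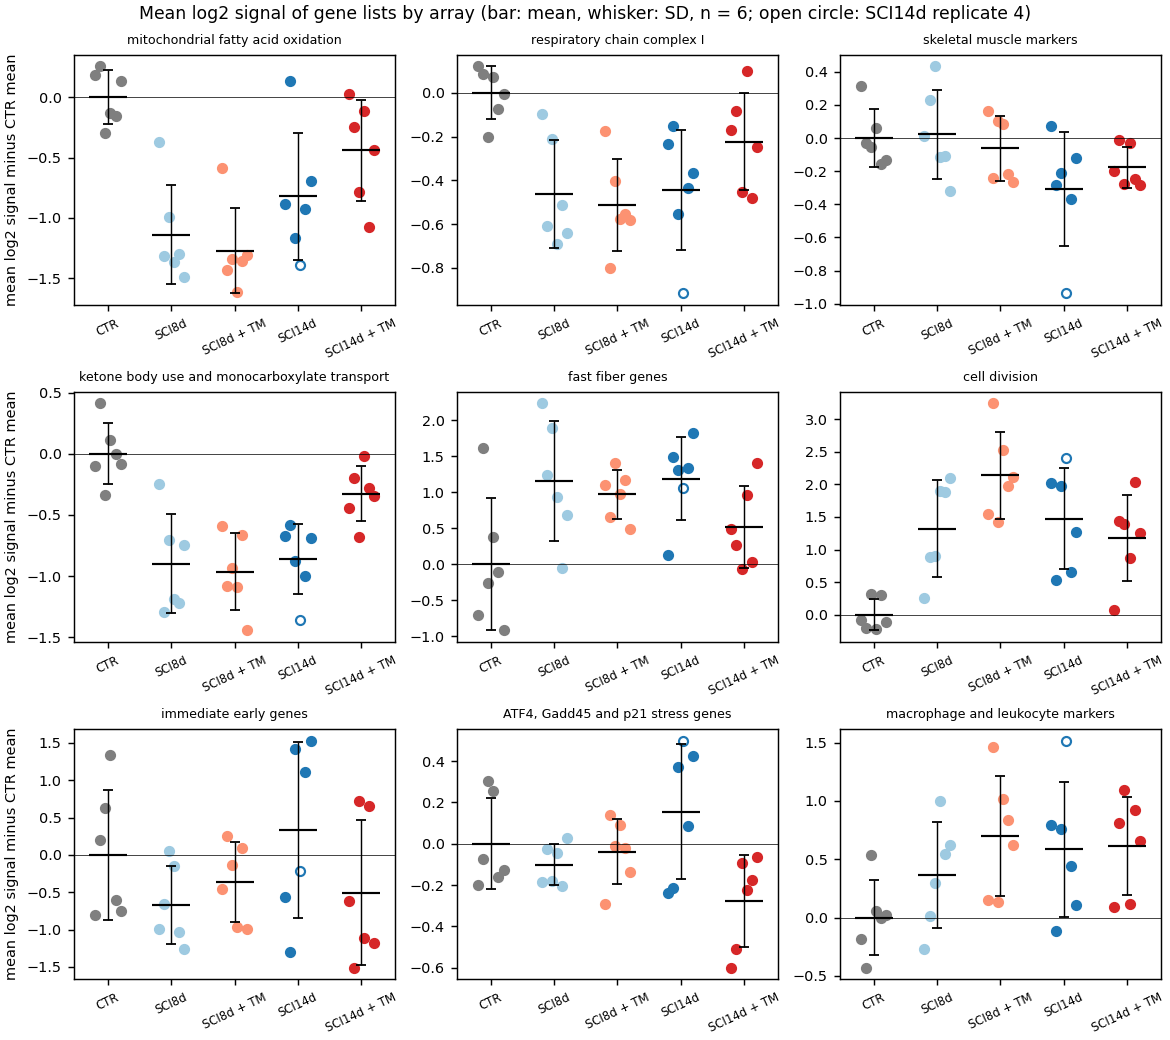
The y axis is the mean log2 signal of a gene list on an array, minus the mean of the 6 control arrays, for CTR, SCI8d, SCI8d + TM, SCI14d and SCI14d + TM (x axis, 6 arrays each, bar for the mean, whisker for the SD, open circle for SCI14d replicate 4). The trained day 14 arrays lie higher for ketone use, where 5 of 6 exceed all untrained ones, and overlap with them for fatty acid oxidation and complex I, while immediate early genes spread over more than 1 log2 unit within each day 14 group.

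Regulators of the oxidative program were uneven. Perm1, a muscle protein that acts with PGC-1 and the ERRs, was at 256, 1490 and 2112 without training and 1577, 3288 and 4206 with it, against a control median of 5199. The lowest value was that of SCI14d replicate 4, and 5 of 6 trained arrays were above all untrained ones. The difference was 1.38 (SE 0.41, adjusted p = 0.503), and 0.95 without that array. Esrra, which encodes ERR alpha, differed by 0.59 (SE 0.19, 0.41 without it) and Sirt3, a mitochondrial deacetylase, by 0.70 (SE 0.24, 0.49 without it). Over the 23 regulators, 13 were higher and 10 lower on average, 5 higher and 2 lower at an unadjusted p under 0.05. Without SCI14d replicate 4, 11 were higher on average, with 5 higher and 3 lower at that p. Ppara, a receptor for fatty acids, and Esrrg, which encodes ERR gamma, were the other 2 higher ones with all arrays. They differed by 2.01 (SE 0.69) and 0.80 (SE 0.28) and were named after their values were seen. The 2 lower ones are not named here, and the list ran from -0.86 to 2.01. The median of the list was 0.03, but -0.04 after scaling to GAPDH and -0.01 without SCI14d replicate 4.

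Promoters are shown for Perm1 and Trim63, since the first acts with the ERRs and the second has the smallest p of the lower genes with a symbol. Each runs from 250 bases before to 50 bases after the gene's start in RefSeq (build GRCr8, plus strand), and a motif was searched on both strands. In Perm1 (chr5:172081999-172082298) the capitals mark the ERR half-site AAGGTCA, found here as its reverse complement. In Trim63 (chr5:151816986-151817285) they mark the FoxO motif GTAAACA, also on the reverse strand.
Perm1: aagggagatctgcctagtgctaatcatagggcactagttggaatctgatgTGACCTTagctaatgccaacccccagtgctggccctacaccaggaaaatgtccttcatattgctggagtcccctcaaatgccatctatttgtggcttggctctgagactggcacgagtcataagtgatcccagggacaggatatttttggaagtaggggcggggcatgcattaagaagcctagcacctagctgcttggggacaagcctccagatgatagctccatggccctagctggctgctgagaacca
Trim63: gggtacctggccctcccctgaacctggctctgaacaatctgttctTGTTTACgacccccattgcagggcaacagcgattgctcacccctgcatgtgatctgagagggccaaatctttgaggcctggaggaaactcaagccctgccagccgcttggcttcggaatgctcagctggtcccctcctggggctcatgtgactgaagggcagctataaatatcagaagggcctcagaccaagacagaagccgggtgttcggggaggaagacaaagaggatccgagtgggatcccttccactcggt
AAGGTCA was found in 4.61% of 33469 promoters. The lists were limited to 1 promoter per symbol. The 33469 were not, nor were they limited to genes measured here, so the shares are over unlike sets. AAGGTCA was found in 13 of 107 (12.1%) for fatty acid oxidation, the citrate cycle, the respiratory chain and ATP synthase together. These included 4 of 17 for ATP synthase and 1 of 16 for fatty acid oxidation. Genes of ketone use and monocarboxylate transport had 0 of 6, and the regulators had 1 of 23, which was Perm1. GTAAACA was found in 3.78% of promoters and in 2 of 15 of the ligase and FoxO genes, Trim63 and Mdm2. Such matches describe the letters and not a site in use.

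Fast fiber genes mostly had lower means after training. Myh4, the myosin of the fastest fibers, was at 68.0, 3272 and 8553 without training and at 53.3, 189 and 1297 with it, against a control median of 105 and a highest control of 7924. All groups spanned more than a factor of 10, and SCI14d replicate 1 was lower than all but 1 trained array. The difference was -3.19 (SE 1.12, 95% confidence interval -5.46 to -0.93, adjusted p = 0.697). Pvalb, a calcium buffer of fast fibers, differed by -2.85 (SE 1.22). Actn3, the fast isoform of alpha-actinin, had a median of 13716 without and 2238 with training (-1.68, SE 0.89). Differences were smaller for other fast markers that the study names. Myh1, a brighter fast myosin, differed by -0.23 (SE 0.34), with -0.31 to 0.25 in its other probe sets. Mybph differed by 0.09 (SE 0.57). Of 16 fast fiber genes, 12 were lower on average and 2 at an unadjusted p under 0.05, with a median of -0.26, or 16 of 16 and -0.34 without SCI14d replicate 4. Leaving out 1 array gave medians of -0.34 to -0.17, the weakest without SCI14d + TM replicate 5.

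The 12 slow fiber genes were all higher on average (median 0.18), but without SCI14d replicate 4 only 9 were, with a median of 0.03. Stretch-responsive sarcomere genes showed the same dependence, with 15 of 18 higher and a median of 0.20, or 12 and 0.06 without it. The median was 0.33 without SCI14d replicate 1. Ankrd2, an ankyrin repeat protein induced by stretch, was at 2977, 7652 and 35652 on the untrained and 11785, 28875 and 39448 on the trained arrays. It overlapped between the groups, with a difference of 1.51 (SE 0.47) that was 1.24 without that array. Myoz2, a Z-disc protein of slow fibers, differed by 0.56 (SE 0.20), and by 0.26 without it.

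Hspb3, a small heat shock protein of muscle, did not overlap between the groups. It ran over 2145, 6552 and 6710 without training and 8729, 10354 and 13157 with it, and trained muscle was at the level of controls (7833 to 10754). The difference was 0.99 (SE 0.24, adjusted p = 0.245), and 0.72 without SCI14d replicate 4. It is 1 of 22 heat shock genes on the list, of which 15 were higher on average, 2 higher and 1 lower at an unadjusted p under 0.05, or 10, 1 and 0 without that array. Their median was 0.03, but -0.04 after scaling to GAPDH and -0.02 without that array. At the neuromuscular junction, Chrnd, the delta subunit of the acetylcholine receptor, was 1.02 higher (SE 0.34) and Agrn, which clusters that receptor, 0.41 higher (SE 0.18), while 8 of 14 junction genes were lower on average. The median of the 14 was -0.03, or -0.14 without SCI14d replicate 4 and 0.02 after median centring.

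The myostatin and activin pathway was lower on average in 15 of 19 genes, with a median of -0.24, and -0.23 without SCI14d replicate 4. Fst encodes follistatin, which binds and blocks myostatin and activin. Its probe set 1387843_at gave 576, 736 and 1005 without training and 250, 445 and 594 with it. Of 6 trained arrays, 5 were below all untrained ones and the controls ran from 323 to 653. The difference was -0.87 (SE 0.22, adjusted p = 0.245), and that of its brighter probe set, 1372750_at, was -0.68 (SE 0.24). Smad3, which carries the signal of these ligands to the nucleus, differed by -0.53 (SE 0.17, or -0.41 without SCI14d replicate 4), with 2651, 3179 and 5106 against 1509, 2506 and 3286. A second probe set gave -0.20 (SE 0.94).

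BMP signaling (22 genes) had a median of -0.06, with 2 genes lower and 0 higher at an unadjusted p under 0.05, or 1 and 1 without SCI14d replicate 4. The median was 0.01 without SCI14d + TM replicate 2 and 0.02 without SCI14d replicate 5. Nog, a BMP antagonist, differed by -1.27 (SE 0.47), but by -0.74 without SCI14d replicate 4, its highest array at 1368. Bmp2, a ligand, differed by -0.71 (SE 0.29). The 29 IGF and insulin genes had a median of 0.05, or -0.02 after scaling to GAPDH, and 17 were higher on average. At an unadjusted p under 0.05, 1 was higher and 2 lower, or 3 and 1 without SCI14d replicate 4. Among them the binding proteins Igfbp2 and Igfbp5 differed by -1.31 (SE 0.40) and -0.80 (SE 0.35), or by -1.08 and -0.67 without that array. The other 4 probe sets of Igfbp5 gave -1.18 to -0.12. Ddit4, an inhibitor of mTORC1, was higher by 0.74 (SE 0.21, adjusted p = 0.457), with 5 of 6 trained arrays above the highest untrained one (721). Eif2ak1, a kinase that slows translation and that the study names, differed by -0.25 (SE 0.11), and by -0.05 (SE 0.14) in a second probe set. Eif3f, an initiation factor degraded in atrophy, was 0.29 higher (SE 0.09). Over the 44 initiation factors the median was -0.02, with 4 higher and 3 lower at an unadjusted p under 0.05, or 1 and 2 without SCI14d replicate 4. The median was 0.03 after median centring. A further list held 24 genes. They were taken from the study, which reports some of them for injury and not for training, and others only for early training. The study used an unadjusted p on these same arrays, so the list is not independent evidence. On day 14, 0 of the 24 passed the adjusted test. At an unadjusted p under 0.05, 3 were higher and 5 lower, or 2 and 4 without SCI14d replicate 4. These counts do not test what the study reports for injury or early training.

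**Figure D3:**
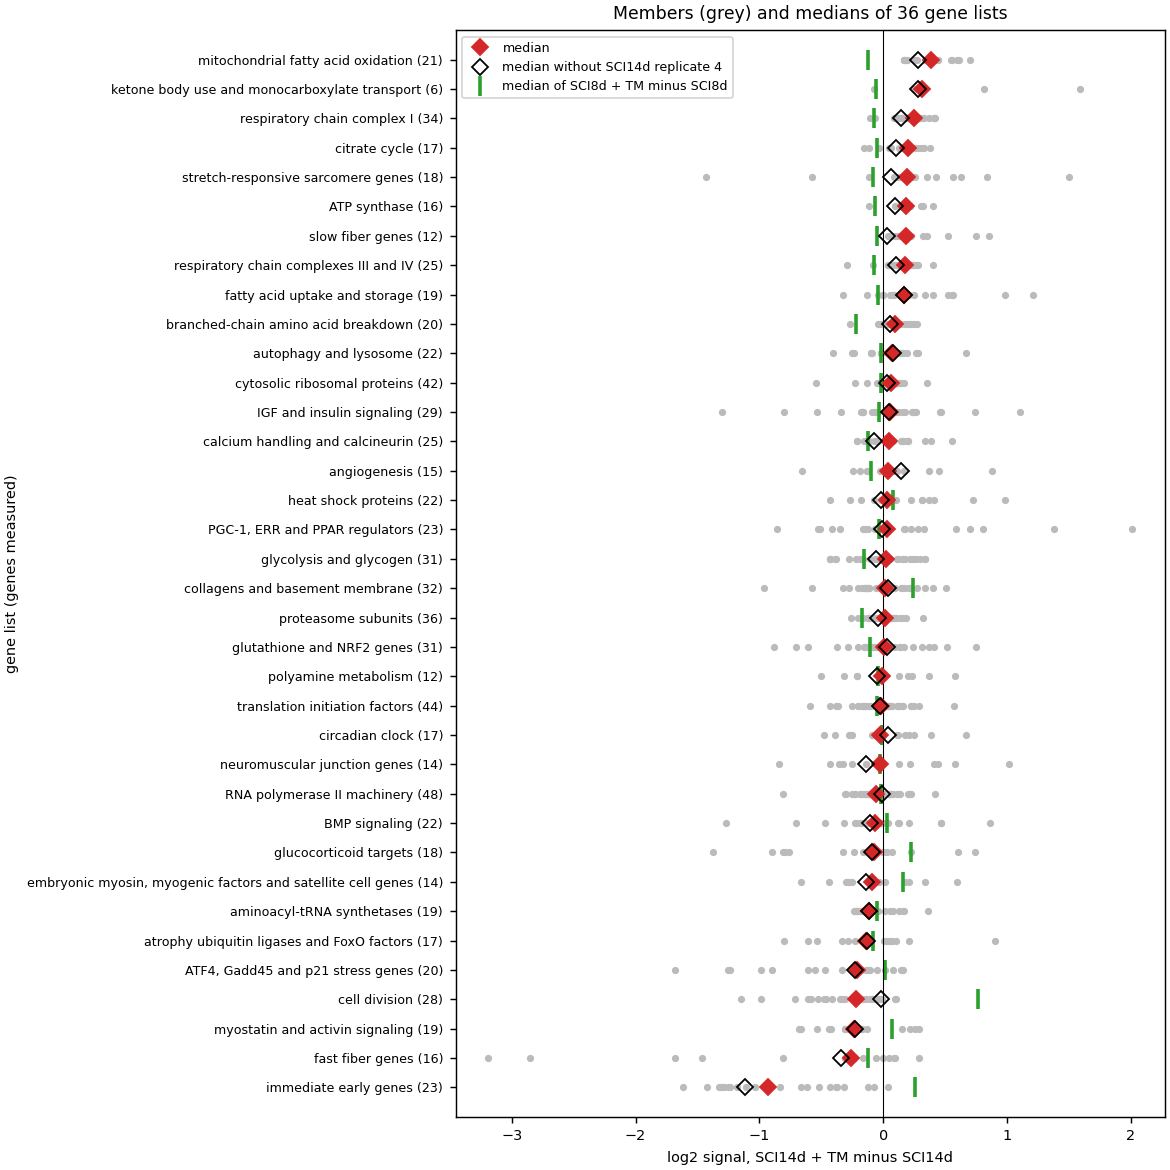
Each row is a gene list with the number of genes measured, and the x axis is the log2 signal of SCI14d + TM minus SCI14d. Grey points are genes, red diamonds the list median, open diamonds the median without SCI14d replicate 4 and green bars the median for training on day 8. Fatty acid oxidation has the highest median (0.39) and immediate early genes the lowest (-0.93).

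Immediate early genes, which are switched on within minutes by stress, injury or contraction, had the lowest median of the 36 lists other than cell markers, -0.93, and 22 of 23 were lower on average. The arrays within a group differed by more than the group means, which were 0.33 (SD 1.18) without and -0.51 (SD 0.97) with training, relative to controls. The mean of the list lay between -1.51 and 0.72 on the trained, between -1.30 and 1.53 on the untrained and between -0.81 and 1.34 on the control arrays. Myc, a growth regulator among them, was at 370, 1864 and 3051 without and at 330, 581 and 853 with training. Its difference was -1.33 (SE 0.46, adjusted p = 0.689), and 6 genes of the list were lower at an unadjusted p under 0.05, or 4 without SCI14d replicate 4. Stress genes under ATF4, Gadd45 and p21 were lower on average in 16 of 20, with a median of -0.21, which was -0.36 without SCI14d + TM replicate 6 and -0.32 without SCI14d replicate 2. Gadd45a, which rises in denervated muscle, was at 2830, 5961 and 17210 without and 2031, 2299 and 4600 with training. Of its trained arrays, 4 of 6 were below all untrained ones, and the difference was -1.25 (SE 0.43, adjusted p = 0.689), or -0.97 without SCI14d replicate 4. Chac1, a glutathione-degrading ATF4 target, differed by -1.68 (SE 0.58). Hmox1, which breaks down heme, differed by -0.88 (SE 0.35), and by -0.53 without SCI14d replicate 4.

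Genes of cell division were lower on average in 26 of 28 (median -0.22), with 0 at an unadjusted p under 0.05. Without SCI14d replicate 4, which had the highest mean of this list, 15 were lower and the median was -0.02. It was -0.40 without SCI14d + TM replicate 5. Collagens and basement membrane genes (32) had a median of 0.02, which was -0.07 after quantile normalization and -0.05 after scaling to GAPDH, with 0 at an unadjusted p under 0.05. Macrophage markers (18) had a median of 0.02, which was 0.20 without SCI14d replicate 4 and -0.05 after scaling to GAPDH, and fibroblast markers (13) one of -0.07, or 0.00 without it. Their means on the trained arrays ran from 0.09 to 1.09 and from 0.04 to 0.81 above controls.

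Tendon and cartilage markers (7 genes) had medians of -1.14 to -0.52 when 1 array was left out, the weakest without SCI14d + TM replicate 3. Of these genes 6 were lower on average, and the mean of the list lay between -1.85 and -0.37 on the trained and between -0.85 and 0.18 on the untrained arrays, with 3 trained arrays below all untrained ones and controls from -1.79 to 1.03. Comp, a cartilage matrix protein, differed by -1.57 (SE 0.61, or -1.19 without SCI14d replicate 4), while Scx, a tendon transcription factor, was higher on all 6 trained arrays (2775 to 4523) than on the untrained ones (1326 to 2621). The part that the amount of tendon in a sample has in the lists of matrix and growth factor genes was not tested. Adipocyte markers (10), of which 7 were higher and 3 lower on average, from -0.64 to 1.59, had a median of 0.32, which was 0.03 without SCI14d + TM replicate 4 or replicate 6, and a mean of -1.72 to -0.11 on the trained and -1.94 to -0.70 on the untrained arrays, relative to controls. Lpl and Fabp4 are also used by adipocytes, and the part of fat in the lipid genes was not tested. Aqp7, a glycerol channel of fat cells, was the highest of them at 1.59 (SE 0.54).

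Ranked by p among genes above the 40th percentile of signal, the first of the 12 higher genes was Xpo4, a nuclear export receptor, at 868, 3455 and 8541 without training and 7227, 9371 and 11558 with it. All but 1 trained array exceeded every untrained one, and the trained arrays lay near the controls (7287 to 11320). The difference was 1.67 (SE 0.33, adjusted p = 0.111), 1.32 without SCI14d replicate 4, and 1.09 and 1.37 in its other 2 probe sets. Mrpl40, a mitochondrial ribosomal protein, followed with 0.79 (SE 0.17, adjusted p = 0.118), or 0.62 without SCI14d replicate 4 and 0.43 (SE 0.22) in a second probe set. Ttc7b, part of the complex that brings PI4-kinase to the membrane, had 2352, 2748 and 3312 against 3487, 4497 and 5078. The groups did not overlap, and the difference of 0.68 (SE 0.15, adjusted p = 0.138) was the same without that array.

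Stn1, a telomere-capping protein, was at 992, 1081 and 1715 without and at 1856, 2343 and 2947 with training. It did not overlap either and was 0.95 higher (SE 0.20, adjusted p = 0.138), but its dimmer probe set gave 0.25 (SE 0.23). Acot7, an acyl-CoA thioesterase (0.88, SE 0.20), and Capn2, the large subunit of m-calpain (0.41, SE 0.10), were also above all untrained arrays, the second with the smallest difference of the 12. A dim probe set of Acot7 gave -0.03 (SE 0.25). Mpc1, a subunit of the carrier that brings pyruvate into mitochondria, had 9597, 15880 and 21699 against 21134, 22858 and 30874. Only 1 untrained array reached the trained range, and the difference was 0.65 (SE 0.16, adjusted p = 0.245), or 0.51 without SCI14d replicate 4. Retreg1, a receptor for turnover of the endoplasmic reticulum, differed by 0.60 (SE 0.15), but by 0.01 (SE 0.19) in a second probe set. Lrrc39, a protein of the sarcomeric M-band, differed by 0.90 (SE 0.22), or by 0.68 without SCI14d replicate 4. Osgin2, C8h11orf52 and C8h11orf71 completed the 12, with 0.70 to 0.79.

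By brightest probe sets, the lower genes were led by Trim63, and the p of the next one ranked 34 among all genes. This was Kcnq5, a voltage-gated potassium channel (-0.82, SE 0.22, adjusted p = 0.378, or -0.67 without SCI14d replicate 4), whose dimmer probe sets gave 0.23 (SE 0.52) and -0.16 (SE 0.38). Fst was not ranked by 1387843_at, whose unadjusted p in limma (0.000276) was smaller than that of Kcnq5 (0.000732). Gnl2, a GTPase of large ribosomal subunit assembly, was at 1030, 1298 and 1493 without and 679, 790 and 922 with training. The groups did not overlap, and its difference was -0.69 (SE 0.19, adjusted p = 0.378). A second, dim probe set gave 0.99 (SE 0.71), and the mean of both gave 0.15. Nom1, another nucleolar protein, differed by -0.85 (SE 0.25), and Ssb, the La protein that binds new transcripts of RNA polymerase III, by -0.30 (SE 0.09) without overlap. The second probe set of Ssb gave -0.03 (SE 0.57). Signaling genes were Jak2, a cytokine receptor kinase (-0.86, SE 0.24, or -0.66 without SCI14d replicate 4), and Tab3, an adaptor of the TAK1 kinase (-0.40, SE 0.12, but 0.10 with SE 0.24 in a second probe set). The rest were Sec61a2, Slc31a2, Chd2, Ppp1r14c and Arid5a, between -0.38 and -1.24. Sec61a2 and Tab3 also did not overlap between the groups.

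**Figure D4:**
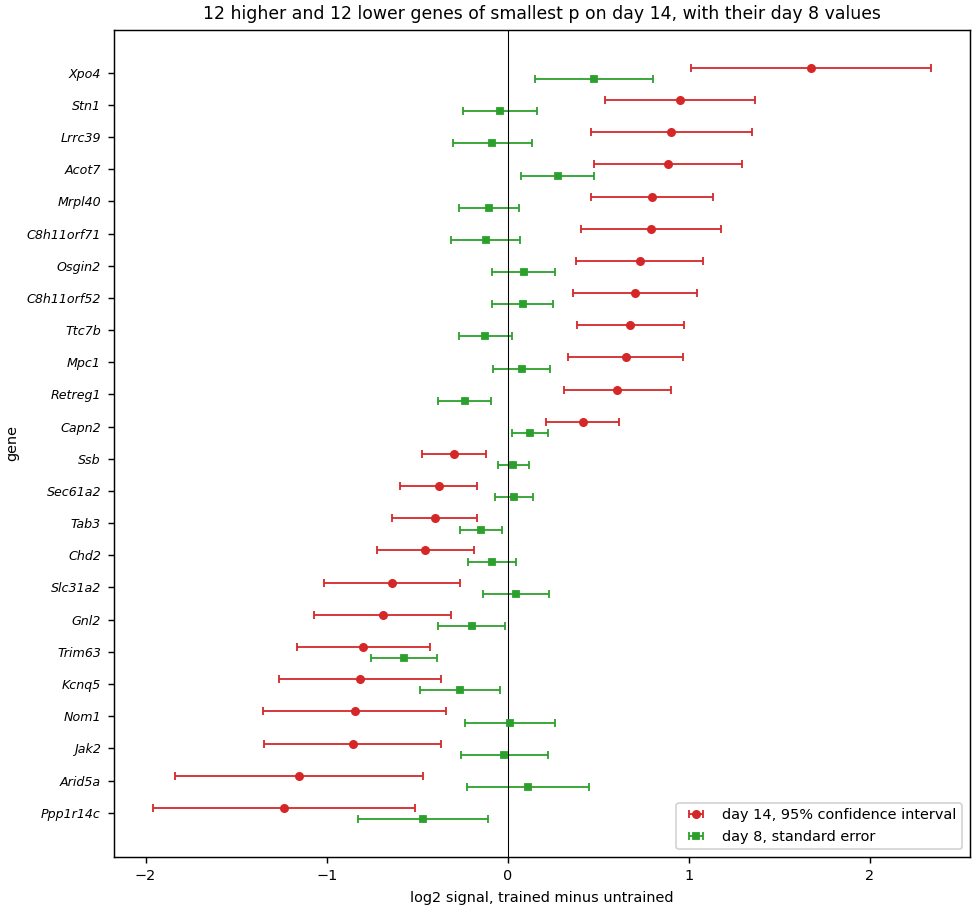
Red circles give the log2 difference of SCI14d + TM minus SCI14d (x axis) with its 95% confidence interval for the 12 higher and 12 lower genes of smallest p (y axis), and green squares that of SCI8d + TM minus SCI8d with its standard error. Genes were chosen on day 14, where all intervals leave out 0. On day 8 Trim63 has the largest difference of the 24 (-0.57), and 6 of 12 higher and 7 of 12 lower genes have the same sign.

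The rats trained from day 7 to day 8 share no array with those of day 14, so both differences can be set side by side. Of the 12 higher genes, 6 had a higher mean after training on day 8 as well, with values from -0.24 to 0.48 and a median of 0.02. Of the 12 lower genes 7 had a lower mean, from -0.57 to 0.11 with a median of -0.05. Trim63 differed by -0.57 on day 8 (SE 0.18) and by -0.80 on day 14, and the difference between these was -0.22 (SE 0.26, adjusted p = 0.968). For Fst (1387843_at) the values were -0.92 (SE 0.22) and -0.87. Its brighter probe set, 1372750_at, gave -0.81 on day 8 and -0.68 on day 14. Both genes were thus lower on average after either exposure. The study itself reports lower Fst after early training on these same arrays. The short exposure therefore gives no independent evidence for Fst. The Spearman correlation of the 2 training differences was -0.04 over 10375 genes, a description across genes whose values come from separate arrays.

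The lists of fatty acid oxidation, complex I and immediate early genes had medians of -0.12, -0.08 and 0.26 on day 8, opposite in sign to those of day 14. Genes of cell division had a median of 0.77 on day 8, with 28 of 28 higher on average. SCI8d replicate 1 lay apart in these lists. Its mean for fatty acid oxidation was -0.37 relative to controls, against -1.49 to -0.99 on the other untrained day 8 arrays. For cell division it was 0.26, against 0.88 to 2.11. Day 8 values were not recomputed without single arrays, so the signs of the small day 8 medians may rest on 1 array. A test of the difference between the training effects found 0 of 31042 probe sets in limma (0%), with a smallest adjusted p of 0.208. It found 0 as well without an intensity trend, and 1659 (5.34%) at an unadjusted p under 0.05. That smallest value was that of 1380971_at. For Asb2 the difference between the effects was 1.30 (SE 0.35, adjusted p = 0.85) while Myc, 0.68 higher on average on day 8 (SE 0.46), gave an adjusted p of 0.886, so neither is shown to differ between the exposures.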

How the data were processed

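RNA of 36 rat soleus muscles was measured on Affymetrix Rat Genome 230 2.0 arrays, 1 array per rat. The authors deposited linear MAS 5.0 signal intensity values, each array scaled by 1 factor, with probe sets kept that had at least 4 present calls, and a common 2% trimmed mean was seen in the table. The amount of RNA labelled is given differently in the labels and in the methods. After 57 control probe sets were left out, log2 signals of 31042 probe sets were fitted in limma 3.58.1 (R 4.3.3) with all 6 groups (36 arrays, 30 residual degrees of freedom, intensity trend, eBayes). P-values were adjusted by Benjamini-Hochberg over all probe sets. The scripts, tested on simulated data, used Python 3.11.15. Of the probe sets, 20826 had 1 symbol, 436 several and 9780 none. A gene was taken by its brightest probe set (14217 genes), and genes the study names by its own probe set.

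Genes were named as the 12 smallest p in each direction above the 40th percentile of signal. Added to these were up to 3 genes of smallest p per list (all of a list under 12 genes). The genes of the list taken from the study and probe sets past the adjusted p were added too. The members and lists were chosen with earlier results of these data known. The difference of the training effects on days 14 and 8 was tested in the same model. Alternatives were the scaling of arrays, an offset of 32, leaving out the dimmest 40%, no intensity trend, array weights, the 12 arrays alone, the methods' t-test, the replicate number as a block, replicates 5 and 6 as a covariate, the GAPDH 3′ to 5′ ratio as a covariate, averaging all probe sets of 1 gene and leaving out each array. Leaving out the 2 arrays of highest GAPDH ratio was added after the data were seen. Replicates are separate rats. Promoters were taken from RefSeq (GRCr8), matched by symbol. In all, 0 columns of per-sample values were left unused.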

Additional observations from a re-analysis of the deposited data

Results flagged for a closer look

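In 23 of 232 groups of 6 arrays looked at (genes and list means, in trained and untrained rats), 1 array stood apart from the other 5, by a gap above Dixon's critical value. For independent groups chance would give about 1 in 20, or 12 here. These groups share the same arrays, and named genes are also on the lists, so the 23 cannot be judged against that number. The values below are the gap of the array that stood apart, as a share of the range.

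SCI14d replicate 4 was such an array most often. It was the lowest for Hspb3 (0.819), Myoz2 (0.717), Perm1 (0.657), Mrpl40 (0.642) and Etfb (0.627), and the highest for Nog (0.689), Igfbp2 (0.671) and Jak2 (0.669). Its list mean was the lowest for calcium handling (0.823), the genes the study names (0.679) and PGC-1, ERR and PPAR regulators (0.671), and the highest for glutathione and NRF2 genes (0.662). SCI14d replicate 1 was the lowest for the fast fiber genes Pvalb (0.738), Myh4 (0.692) and Actn3 (0.638).

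SCI14d replicate 2 was the highest for Asb2 (0.777), Aqp7 (0.748) and the breakdown of branched-chain amino acids (0.636), and SCI14d replicate 6 for Eif2ak1 (0.759). Among trained rats, Scx was highest in replicate 5 (0.843), the ligase and FoxO list in replicate 1 (0.642), and replicate 3 was lowest for erythrocyte markers (0.675). For the probe set that passed the adjusted test, 1380971_at, trained replicate 6 was the lowest (0.742).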

How the results depend on the processing

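The count past the adjusted p was 1 in limma. It was 4 after median centring and 8 with array weights, and 0 with an offset of 32, without the dimmest 40%, with the 12 arrays alone and in the methods' t-test. Leaving out 1 array gave 1 to 13, the 13 without SCI14d replicate 1. At an unadjusted p, scaling to GAPDH gave 463 higher probe sets in place of 889, and median centring 634 lower ones in place of 960. Leaving out 1 array gave 664 to 1218 higher and 774 to 1207 lower ones. Without overlap, 40 were higher, and 74 after median centring. The 41 lower ones became 26 after median centring or scaling to GAPDH and 24 without the dimmest 40%. Without the 2 arrays of highest GAPDH ratio (added after seeing the data, 5 arrays a group) 159 and 195 did not overlap. The planned limit on that ratio left out no array.

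With the replicate block the counts were 1, 946 and 1023. Arrays of the same number did not pair: their deviations correlated at -0.10 to 0.12, and for 1 of 6 numbers the own partner was best. Of 1817 gene values under alternatives, 1805 kept direction and side, 8 passed the threshold newly, 3 lost it and 1 turned, Gnl2 (0.15 with the mean of its probe sets). Of 1196 list medians, 1185 moved by less than 1 SD and 11 by more, and 115 changed sign, in 22 of 46 lists. The cause was not tested. Dim probe sets near the lowest signals were measured least precisely.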

Other observations

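Other gene groups are given here as values. The machinery of protein synthesis had medians of 0.06 for cytosolic ribosomal proteins (42 genes, 32 higher on average), which were -0.05 after quantile normalization and -0.01 after scaling to GAPDH, and of -0.12 for aminoacyl-tRNA synthetases (19 genes, 12 lower), with 0 genes of either list at an unadjusted p under 0.05. RNA polymerase II machinery (48 genes) had 1 higher and 3 lower at that p, or 1 and 1 without SCI14d replicate 4, with a median of -0.06. Myogenic factors and satellite cell genes (14) had a median of -0.09, and the circadian clock (17) one of -0.02, which was 0.03 after median centring, with 0 in both. Glucocorticoid targets (18) had 1 higher and 3 lower, or 1 and 0 without SCI14d replicate 4.

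Calcium handling genes (25) had a median of 0.05, but -0.08 without SCI14d replicate 4. Angiogenesis genes (15) were higher on average in 9, or in 14 without that array. Glutathione and NRF2 genes (31) had 3 higher and 1 lower at an unadjusted p under 0.05, or 3 and 0 without it. Endothelial markers (10) had a median of -0.01, or 0.09 without that array, and Schwann cell markers (7) one of 0.20, or -0.07 without it. Erythrocyte markers were higher on average in 5 of 5, by 0.18 to 0.52 with a median of 0.37, or 0.24 without SCI14d replicate 4 and 0.72 without SCI14d replicate 5, and 0 passed an unadjusted p under 0.05. Smooth muscle markers were higher on average in 6 of 9.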
